A study of Mus musculus with 6 samples.

Results

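Smooth muscle contractile genes of the kind that peritubular myoid cells use were followed in poly(A)-selected RNA of whole mouse testis. The 10 genes were chosen by symbol: the actins Acta2 and Actg2, the myosin genes Myh11, Myl9 and Mylk, the thin-filament genes Tagln, Cnn1, Lmod1 and Tpm2, and the intermediate filament gene Des. All 10 of them were listed in each library, among 23253 genes listed in any library, and all 10 entered the tests. The 6 libraries came from testes of 8-month-old C57BL/6 mice: 3 were labelled L3mbtl2 cKO, a conditional knockout of a Polycomb repressive complex subunit, and 3 were labelled control. The deleter strain, the deleted cell type and the alleles that the control mice carry are not given in the sources used here, nor whether each library is a separate animal, so every p-value reflects spread among libraries that may be technical in part. L3mbtl2 itself had expected counts of 1030, 1105 and 1031 in the libraries labelled cKO, against 658, 705 and 673 in those labelled control, which goes against those labels. The deposited tables' own names also pair the genotypes the other way round. Groups here follow the sample labels, and every direction would turn if the labels had been exchanged.

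Peritubular myoid cells are flat, contractile cells that wrap the seminiferous tubules and move sperm and fluid along the lumen. Their contractile apparatus resembles that of smooth muscle: actin filaments slide on smooth muscle myosin after calcium and calmodulin activate myosin light chain kinase, which phosphorylates the regulatory light chain. Arterioles and the outer capsule of the testis contain cells that use the same proteins, so whole-testis RNA cannot assign a transcript to the tubule wall. In such bulk RNA, fewer cells of a type and less RNA per cell cannot be told apart. Many genes of this class are known targets of serum response factor and its partner myocardin, which act through a DNA element called the CArG box.

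The promoter sequences of 3 genes are shown because CArG-like elements were found in them. The RefSeq promoter table (GRCm38.p6, whose primary assembly is that of mm10) matched 7 of the 10 genes, and the 250 bases before each start were searched, read on the strand of the gene. Capitals mark matches to the CArG box, exact or with 1 substitution. Shown are Myl9 (chr2:156775214-156775463, plus strand), Acta2 (chr19:34255374-34255623, minus strand) and Lmod1 (chr1:135324563-135324812, plus strand).
Myl9: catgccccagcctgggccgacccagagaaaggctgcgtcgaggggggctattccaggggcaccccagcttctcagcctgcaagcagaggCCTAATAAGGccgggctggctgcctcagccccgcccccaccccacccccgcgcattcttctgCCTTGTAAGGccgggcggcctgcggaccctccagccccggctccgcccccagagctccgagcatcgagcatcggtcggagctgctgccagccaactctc
Acta2: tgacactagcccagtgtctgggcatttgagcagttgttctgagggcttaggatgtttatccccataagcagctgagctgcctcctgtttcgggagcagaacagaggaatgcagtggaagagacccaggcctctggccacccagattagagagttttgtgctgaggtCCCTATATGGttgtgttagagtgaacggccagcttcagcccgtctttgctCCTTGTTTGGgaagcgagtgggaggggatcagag
Lmod1: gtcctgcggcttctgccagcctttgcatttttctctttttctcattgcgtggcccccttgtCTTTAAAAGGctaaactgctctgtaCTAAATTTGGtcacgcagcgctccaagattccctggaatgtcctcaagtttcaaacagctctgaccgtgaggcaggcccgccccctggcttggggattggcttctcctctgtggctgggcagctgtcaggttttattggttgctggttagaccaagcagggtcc
The exact CArG box stood in Myl9, at position -161 counted from the start, and with 1 substitution at -99. Acta2 had matches with 1 substitution at -84 and -34, and Lmod1 had them at -189 and -164. The reverse complement of a CArG box has the same form, so both strands are covered. An exact match is held by 1.47% of 32851 promoter windows of the same length, and one with at most 1 substitution by 18.6%, against 1 and 3 of the 7 windows here. CATTCC, the motif of TEAD factors, searched on both strands and not overlapping the CArG matches, was present in Lmod1, Acta2 and Mylk and in 12.6% of all windows. TATAAA, searched on the gene's strand alone, was present in 0 of the 7 and in 7.59% of all windows. The RefSeq bounds of the Myl9 and Acta2 genes lie inside these windows, so part of each window belongs to another annotated transcript. Both marked Acta2 matches lie inside the annotated gene. Among the windows not shown, those of Cnn1 and Tpm2 also cross a gene bound. The Mylk window (chr16:34784700-34784949) lies wholly inside its gene, which starts at 34745199. These matches describe letters in a window and are not evidence of binding.

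Library depth ranged over 18604191 to 18822050 expected counts in the libraries labelled cKO and over 17689205 to 18083291 in those labelled control. The labelled cKO libraries resembled each other, with correlations of log2 CPM (counts scaled to library size) across genes of 0.981 to 0.982, whereas the labelled control libraries differed more, at 0.937 to 0.972. Control replicate 2 correlated with the labelled cKO libraries at 0.980 to 0.982. Genes are not independent replicates, and these correlations describe the libraries only. The calls and medians are therefore also given without control replicate 2 or 3. These libraries were picked after their values were seen. Leaving out control replicate 2, the labelled control library most like those labelled cKO, favours a larger group difference.

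Levels are compared between genes by FPKM (fragments per kilobase, scaled for sequencing depth). In libraries labelled cKO the order was Actg2, Myl9, Acta2, Mylk, Tagln, Myh11, Tpm2, Des, Cnn1 and Lmod1, from 177 FPKM for Actg2 to 0.843 FPKM for Lmod1, and Des and Cnn1 were the only neighbours whose libraries overlapped. In libraries labelled control it was Actg2, Myl9, Acta2, Mylk, Myh11, Tagln, Tpm2, Des, Cnn1 and Lmod1, from 149.7 to 1.68 FPKM. There, the libraries of Actg2 and Myl9 and those of Mylk and Myh11 did not overlap, and all other neighbours did. In both groups Actg2 was far above the other 9.

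**Figure D1:**
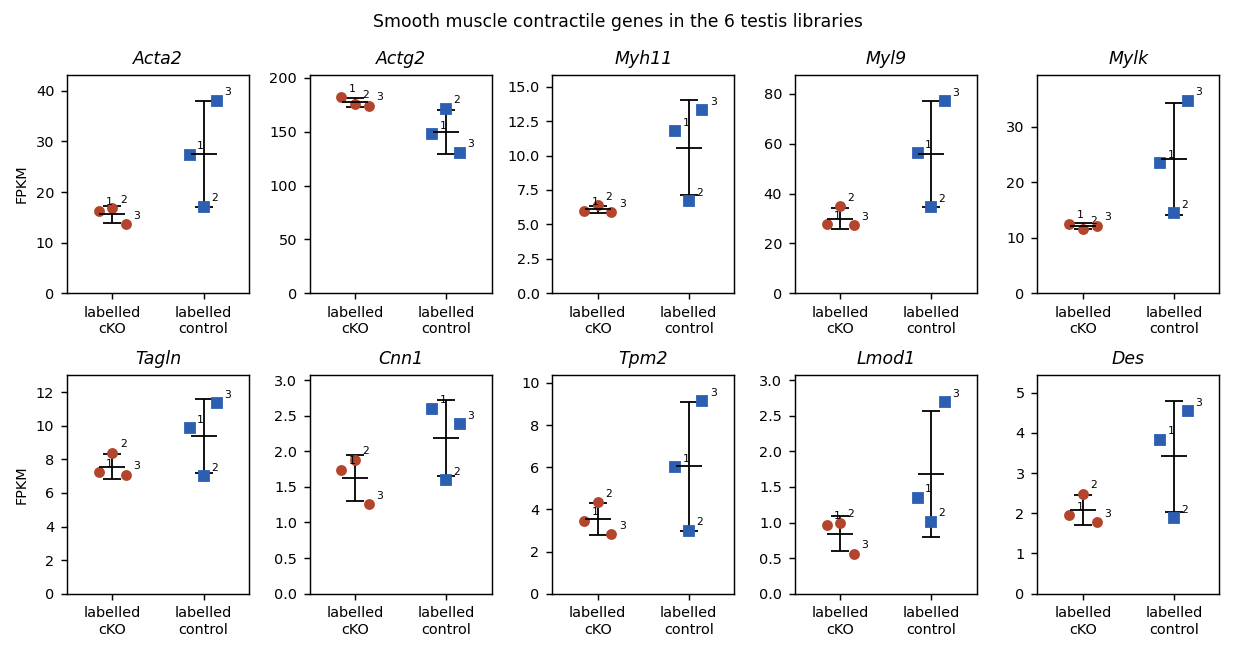
FPKM of each of the 10 genes in each library (points, numbered by replicate), with the labelled cKO group in red circles and the labelled control group in blue squares, and the mean ± SD of 3 libraries (bars). Actg2 is the gene whose labelled cKO libraries lie above its labelled control libraries, and control replicate 2 lies near the labelled cKO libraries for most of the others.

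Actg2 encodes smooth muscle gamma-actin. It is also known to be transcribed in post-meiotic germ cells of the mouse. The gene (Entrez 11468) spans bases 83512909 to 83536251 of chromosome 6 in mm10. It had 182, 176 and 174 FPKM in libraries labelled cKO, against 148, 171 and 130.4 FPKM in those labelled control. All 3 labelled cKO libraries were higher than all 3 labelled control libraries, with control replicate 2 the nearest. The means were 177 ± 4.15 and 149.7 ± 20.4 FPKM (SD, n = 3 each). The log2 fold change of counts was 0.33 (SE 0.13), with an adjusted p of 0.170 by edgeR's quasi-likelihood test with Benjamini-Hochberg adjustment.

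Acta2 encodes smooth muscle alpha-actin, the usual marker of peritubular myoid cells (Entrez 11475, chromosome 19, 34240336 to 34255585). It had 16.3, 16.9 and 13.7 FPKM in libraries labelled cKO, against 27.4, 17.1 and 38.0 FPKM in those labelled control. On FPKM the groups did not overlap, by the margin between 16.9 FPKM in cKO replicate 2 and 17.1 FPKM in control replicate 2. On TMM-scaled CPM they did overlap, with 44.0 CPM in cKO replicate 2 and 43.1 CPM in control replicate 2. The log2 fold change was -0.71 (SE 0.25), with an edgeR adjusted p of 0.166.

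The smooth muscle actins therefore lay on opposite sides of 0. The Actg2 to Acta2 ratio of FPKM was 11.2, 10.4 and 12.7 in libraries labelled cKO, against 5.39, 9.999 and 3.43 in libraries labelled control. These ratios did not overlap either, and control replicate 2 stood close to the labelled cKO libraries. A two-sided exact permutation test of a single value over 3 against 3 libraries cannot go below p = 0.1, so none is given. Among the 6 conventional actins, Actg2 held 20.04 ± 0.585% of the summed FPKM in libraries labelled cKO and 16.5 ± 2.36% in libraries labelled control (SD, n = 3 each). Acta2 held 1.81, 1.86 and 1.61% in libraries labelled cKO and 3.02, 1.90 and 4.16% in libraries labelled control. The cytoplasmic actins differed little: Actb had 246 ± 15.2 FPKM in libraries labelled cKO and 258 ± 4.49 FPKM in those labelled control (log2 fold change 0.04, SE 0.09). Actg1 had 446 ± 13.98 FPKM in libraries labelled cKO and 472 ± 12.2 FPKM in those labelled control (log2 fold change 0.02, SE 0.09). For both, the mean FPKM was lower under the label cKO while the fitted fold of counts was just above 0. The coding sequences of the smooth muscle actins are near-identical, and how the counting divided shared reads between them was not tested, although their expected counts were whole numbers.

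**Figure D2:**
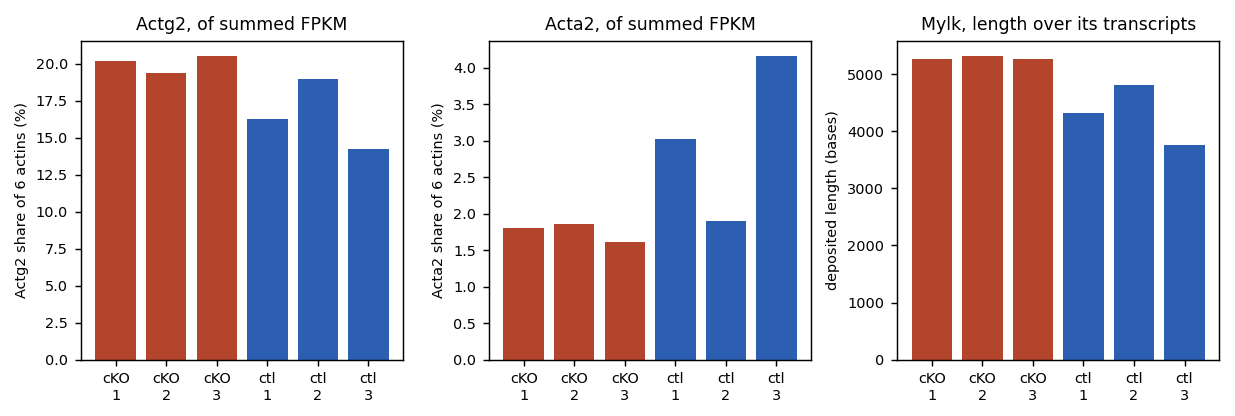
Share of Actg2 (left) and of Acta2 (middle) in the summed FPKM of the 6 actins, in percent, and the deposited length of Mylk in bases (right), as 1 bar per library, with the libraries labelled cKO in red and those labelled control (ctl) in blue. Actg2 holds 19.4 to 20.5% in libraries labelled cKO and 14.3 to 19.0% in those labelled control, and Mylk is longest under the label cKO.

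Myh11, the heavy chain of smooth muscle myosin (Entrez 17880, chromosome 16, 14194527 to 14292188), had 6.00, 6.41 and 5.88 FPKM in libraries labelled cKO, against 11.8, 6.68 and 13.3 FPKM in those labelled control. Every labelled cKO library was below every labelled control library, on FPKM and on CPM. The log2 fold change was -0.71 (SE 0.20), with an adjusted p of 0.166 by edgeR and 0.0336 by DESeq2. Over its alternatives the adjusted p ranged between 0.00848 and 0.377.

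Myl9 encodes the regulatory light chain of that myosin (Entrez 98932, chromosome 2, 156775408 to 156781657). It had 27.7, 34.9 and 27.2 FPKM in libraries labelled cKO, against 56.1, 34.6 and 77.0 FPKM in those labelled control. The groups overlapped, because cKO replicate 2 lay just above control replicate 2. The log2 fold change was -0.79 (SE 0.26), with an adjusted p of 0.166 by edgeR and 0.0439 by DESeq2, within a range of 0.00888 to 0.377 over its alternatives.

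Mylk, the kinase that phosphorylates that light chain (Entrez 107589, chromosome 16, 34745199 to 35002436), had 1235, 1144 and 1186 expected counts in libraries labelled cKO, against 1802, 1246 and 2276 in those labelled control. The groups did not overlap on CPM, although cKO replicate 1 (68.3 CPM) nearly met control replicate 2 (68.6 CPM). Its FPKM was 12.5, 11.5 and 12.2 in libraries labelled cKO and 23.4, 14.4 and 34.6 in libraries labelled control. The log2 fold change of counts was -0.54 (SE 0.19), with an edgeR adjusted p of 0.167. Its deposited length, an average over its transcripts, was 5273, 5321 and 5261 bases in libraries labelled cKO, against 4315, 4816 and 3752 bases in libraries labelled control. The lengths did not overlap, and the means were 5285 ± 31.5 and 4294 ± 532 bases (SD, n = 3 each). Actg2 and Myh11 were shorter under the label cKO, also without overlap. Their mean lengths were 1376 against 1382 bases for Actg2 and 5330 against 5456 bases for Myh11. The share of all genes that were shorter in this way is not given here. Cnn1 and Tpm2 lengths overlapped. Among 8947 genes whose length differed between libraries, 6.34% had all labelled cKO libraries longer than all labelled control libraries, and the Mylk length ratio was above that of 99.85% of them. FPKM divides by this length, and on log2(FPKM + 1) the difference was -0.86 (SE 0.28, limma adjusted p 0.202), larger than on counts. The tables list 1 RefSeq and 4 assembled transcripts for Mylk and pool them. In the GENCODE vM21 annotation the gene has a long coding transcript of 7824 bases and a short one of 1620 bases. The gene is known to give, besides the kinase, the short protein telokin from its end. Which transcript moved the average cannot be read from pooled tables. Mylk also overlaps other listed genes, and its expected counts in control replicates 1 and 2 were 1801.99 and 1245.99, just off whole numbers.

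The thin-filament genes had lower levels than the actins and myosin light chain. Tagln encodes transgelin, an actin-binding protein of smooth muscle (chromosome 9, 45929628 to 45936058). It had 7.24, 8.40 and 7.09 FPKM in libraries labelled cKO, against 9.87, 7.01 and 11.4 FPKM in those labelled control. The groups overlapped, with control replicate 2 lowest of all 6, and the log2 fold change was -0.21 (SE 0.20, edgeR adjusted p 0.479). Tagln overlaps Pcsk7, and its expected counts were fractional in all 6 libraries. Cnn1, calponin, which inhibits the myosin ATPase (chromosome 9, 22099221 to 22109221), had 1.74, 1.88 and 1.26 FPKM in libraries labelled cKO, against 2.60, 1.59 and 2.38 FPKM in those labelled control. These also overlapped, with a log2 fold change of -0.35 (SE 0.28, edgeR adjusted p 0.409). Tpm2, a tropomyosin that covers the myosin-binding sites of actin (chromosome 4, 43513726 to 43523583), had 3.47, 4.33 and 2.81 FPKM in libraries labelled cKO, against 6.00, 2.99 and 9.12 FPKM in those labelled control. Control replicate 2 fell within the range of the labelled cKO libraries, and the log2 fold change was -0.64 (SE 0.36, edgeR adjusted p 0.258).

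Lmod1, leiomodin, which nucleates actin filaments in smooth muscle (chromosome 1, 135324813 to 135368065), had 41 to 73 expected counts in libraries labelled cKO and 71 to 186 in libraries labelled control. Its FPKM of 0.97, 1.0 and 0.56 in libraries labelled cKO lay below 1.35, 1.01 and 2.69 in libraries labelled control, by a margin of 0.01 FPKM between the replicates numbered 2. On CPM the groups overlapped, with 4.02 CPM in cKO replicate 2 and 3.91 CPM in control replicate 2. The log2 fold change was -0.89 (SE 0.40, edgeR adjusted p 0.191). Des encodes desmin, the intermediate filament protein of muscle (chromosome 1, 75360292 to 75368579). It had 1.95, 2.49 and 1.78 FPKM in libraries labelled cKO, against 3.83, 1.88 and 4.54 FPKM in those labelled control. Here again control replicate 2 lay among the labelled cKO libraries, and the log2 fold change was -0.61 (SE 0.32, edgeR adjusted p 0.227). Des overlaps Gm15179 and Tpm2 overlaps Car9, so reads of those pairs may not be separated.

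By edgeR's quasi-likelihood test none of the 10 passed an adjusted p of 0.05, lower or higher, and of all 18269 genes tested 0% passed in either direction. The smallest adjusted p was 0.166, and 5056 genes had an unadjusted p under 0.05, 1617 higher and 3439 lower. Of the 10 genes, 4 were lower at that level (Acta2, Myh11, Myl9 and Mylk), against 18.8% of all genes. Actg2 was higher at that level (unadjusted edgeR p 0.0327), as were 1617 of the 18269 genes tested. DESeq2 called Myh11 and Myl9 lower, 2 of 10, where it called 7.66% of all genes lower and 0.405% higher. Without control replicate 2, edgeR called 7 of the 10 lower (Acta2, Myh11, Myl9, Mylk, Des, Lmod1 and Tpm2) and Actg2 higher, but it then called 20.7% of all genes lower and 11.0% higher. That library was left out for its likeness to those labelled cKO, which favours such calls, so they are not separate support. Without control replicate 3, none of the 10 was called, and every fold change was smaller in size. It was then -0.42 for Acta2, -0.54 for Myh11, -0.50 for Myl9, -0.32 for Mylk and 0.23 for Actg2. For the lower-level genes it was -0.06 for Tagln, -0.28 for Cnn1, -0.24 for Tpm2, -0.39 for Lmod1 and -0.37 for Des. On CPM the groups did not overlap for 2 genes that were lower (Myh11 and Mylk), against 19.8% of all genes, and for 1 that was higher (Actg2), against 18.0%. The share of the 10 in the last 2 counts is near the background. The median log2 fold change of the 10 was -0.62, and that of all genes tested was -0.0048, of which 50.5% were negative.

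**Figure D3:**
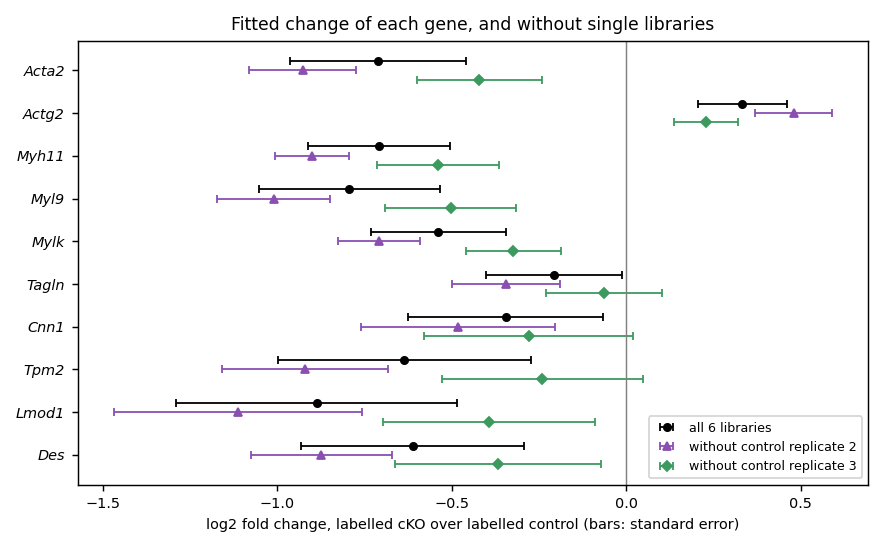
Log2 fold change (labelled cKO over labelled control, edgeR) with its SE for each of the 10 genes, in all 6 libraries, without control replicate 2 and without control replicate 3. Actg2 lies above 0 and the other 9 below 0 in all 3 fits, and the sizes grow without control replicate 2 and shrink without control replicate 3.

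The remaining 9 genes, a grouping without Actg2 that was chosen after the values were seen, had negative folds throughout. Relative to the mean of the labelled cKO libraries, their median log2 CPM was 0.04, 0.22 and -0.19 in the libraries labelled cKO and 0.64, 0.06 and 1.01 in the libraries labelled control. Control replicate 2 thus lay within the range of the labelled cKO libraries. Actg2 ran the other way on the same scale, at 0.04, -0.02 and -0.03 in the libraries labelled cKO and at -0.38, -0.10 and -0.56 in those labelled control. Of the 9, 8 had their highest CPM in control replicate 3, the exception being Cnn1 with its highest value in control replicate 1. Over all genes tested, 40.9% had their highest value in control replicate 3. The closest pair of patterns was Acta2 with Myl9, at a root mean square difference of 0.095 in centred log2 CPM over 6 libraries. Acta2 with Myh11 and Myh11 with Mylk were each at 0.12, whereas Actg2 was at 0.42 from Tagln, its nearest among the 10, and at 0.81 from Lmod1.

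Outside the 10, the patterns nearest to Acta2 among 9411 genes of at least 5 FPKM were those of Sh3glb2, Nfic and Neo1, at 0.03, 0.04 and 0.06. Those nearest to Actg2 were Ttc23l, 1700009N14Rik and Cenpn, at 0.01, 0.01 and 0.02. Those nearest to Myh11 were Chpf, Myo10 and Espn, at 0.04, 0.05 and 0.05. With 6 libraries many patterns are alike, and likeness is given as a description.

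Other parts of the contractile pathway were read from lists chosen with earlier results known, and edgeR called 0 genes in any of them. Beside these lists, DESeq2 called 7.66% of all genes lower, and 50.5% of all folds were negative. In the wider smooth muscle apparatus, 16 of 21 tested genes had negative folds and the median was -0.62, with 1 gene lower by DESeq2. That gene was Cald1, caldesmon, which binds actin and myosin (3.94 ± 0.236 FPKM in libraries labelled cKO, 7.77 ± 3.46 FPKM in libraries labelled control, log2 fold change -0.88). Vcl, vinculin, had a log2 fold change of -0.57, and Myl6, the essential light chain, one of -0.57. Tes, testin, a focal adhesion protein, had 33.9 ± 0.390 FPKM in libraries labelled cKO and 29.4 ± 4.11 FPKM in libraries labelled control (0.30). Without control replicate 2, 12 genes of this list were lower and 1 higher by edgeR, where 20.7% of all genes were lower and 11.0% higher. Without control replicate 3 the median of the list was -0.30, and the fold of Cald1 was -0.50.

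Regulators of these genes had a median of -0.75, with 13 of 19 negative, and the median was -0.28 without control replicate 3. Smad3, an effector of TGF-beta signalling, was lower by DESeq2, with a log2 fold change of -1.21 (-0.78 without control replicate 3), and Tead1 was the other DESeq2 call. Srf, serum response factor itself, had a log2 fold change of 0.04 at a mean of 14.6 FPKM over all libraries. Myocd, myocardin, had one of -0.83, but at a mean of only 0.18 FPKM (DESeq2 adjusted p 0.330). Mkl1, also on this list, had one of 0.22 at a mean of 15.1 FPKM. Klf4, a repressor of smooth muscle genes that is abundant in spermatids, had 50.6 ± 6.00 FPKM in libraries labelled cKO and 41.8 ± 7.72 FPKM in those labelled control. Of 26 tested genes of contraction signalling, 19 had negative folds with a median of -0.49, which was -0.14 without control replicate 3. In the fit of all libraries 3 were lower by DESeq2, Oxtr, Ppp1r14a and Rock2. Oxtr, the oxytocin receptor, which mediates contraction of the tubule wall, had 1.51, 1.38 and 1.79 FPKM in libraries labelled cKO, against 4.33, 2.70 and 10.3 FPKM in those labelled control. Its groups did not overlap, and its log2 fold change was -1.77, or -1.08 without control replicate 3. Ppp1r14a, an inhibitor of myosin phosphatase, had 10.7, 6.36 and 6.93 FPKM in libraries labelled cKO and 18.8, 10.9 and 32.3 FPKM in libraries labelled control. These did not overlap on FPKM but did on CPM, with 5.31 CPM in cKO replicate 1 and 5.23 CPM in control replicate 2. The calmodulin genes Calm2 and Calm3 had log2 fold changes of 0.17 each.

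Non-muscle and striated relatives of the 10 had 12 of 20 tested genes negative and a median of -0.57, which was -0.30 without control replicate 3. Vim, vimentin, the intermediate filament protein of mesenchymal and Sertoli cells, had 33.1 ± 4.14 FPKM in libraries labelled cKO and 79.3 ± 44.6 FPKM in libraries labelled control, and it was lower by DESeq2. Cnn3, a calponin of non-muscle cells, had a log2 fold change of -2.05 (SE 0.63) and was not called by DESeq2 (adjusted p 0.0762). It had 3.70, 3.54 and 3.71 FPKM in libraries labelled cKO, against 13.5, 3.78 and 31.9 FPKM in those labelled control. On CPM its groups overlapped, with 7.52 CPM in cKO replicate 1 and 7.37 CPM in control replicate 2. Without control replicate 3 the folds of Vim and Cnn3 were -0.66 and -1.14. Myh9, non-muscle myosin heavy chain, and Tpm4 were the other 2 DESeq2 calls. Acta1 and Actc1, the skeletal and cardiac actins, each made up at most 0.022% of the summed actin FPKM in a library.

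Markers of other cells differed between the same libraries. For comparison, DESeq2 called 7.66% of all genes lower and 0.405% higher, and 50.5% of all folds were negative. Non-contractile genes of the tubule wall had 22 of 25 tested folds negative, a median of -0.99 and 9 lower by DESeq2, and their summed FPKM was 136 to 141 in libraries labelled cKO and 143 to 316 in those labelled control. Pdgfra, a receptor of platelet-derived growth factor, had 2.43, 1.93 and 1.93 FPKM in libraries labelled cKO, against 5.78, 2.91 and 11.6 FPKM in those labelled control, without overlap. Dcn, the matrix proteoglycan decorin, had 20.9, 18.4 and 16.0 FPKM in libraries labelled cKO and 35.5, 17.6 and 71.6 FPKM in libraries labelled control, which overlapped. Aldh1a2, the member of highest FPKM, had a positive log2 fold change of 0.15. It had 103 to 107 CPM in libraries labelled cKO and 94.3 to 95.1 CPM in those labelled control, without overlap. On FPKM its groups overlapped, at 44.7 to 46.8 under the label cKO and 42.8 to 44.9 under the label control. Aldh1a2 thus makes up a large part of the list's sum under the label cKO. Which cells gave the transcripts of this list, Aldh1a2 and Pdgfra among them, was not tested. For Leydig cells, the steroid-producing cells between tubules, 17 of 17 tested markers had negative folds with a median of -1.80 and 9 lower by DESeq2, and the sums were 1764 to 1910 FPKM in libraries labelled cKO and 2509 to 12036 FPKM in libraries labelled control. The Leydig hormone gene Insl3 had 955, 1110.1 and 1001 FPKM in libraries labelled cKO and 2845, 1337 and 7339 FPKM in libraries labelled control. All 25 Sertoli markers had negative folds, with a median of -0.97 and 19 lower by DESeq2, and their sums were 1271 to 1353 FPKM in libraries labelled cKO and 1660 to 4215 FPKM in those labelled control. Macrophage markers had 17 of 18 folds negative, a median of -1.04 and 6 lower by DESeq2, with sums of 437 to 461 FPKM in libraries labelled cKO and 424 to 622 FPKM in libraries labelled control. Most of the macrophage sum was Aif1, the one member with a positive fold, at 338 to 366 FPKM in libraries labelled cKO and 255 to 337 FPKM in libraries labelled control. Vascular smooth muscle and pericyte markers had 11 of 13 tested folds negative, a median of -0.76 and 1 lower by DESeq2 (Ntn4, netrin 4). Their sums were 43.3 to 49.0 FPKM in libraries labelled cKO and 43.1 to 63.6 FPKM in libraries labelled control. The member of highest FPKM, Ndufa4l2, had a positive log2 fold change of 0.45. It had 24.9 to 28.7 FPKM in libraries labelled cKO and 18.1 to 23.3 FPKM in libraries labelled control. Endothelial markers had 12 of 14 folds negative, a median of -0.56 and 1 lower by DESeq2. Their sums were 23.1 to 29.3 FPKM in libraries labelled cKO and 26.1 to 47.6 FPKM in libraries labelled control. Without control replicate 3 the medians kept their sign and were smaller in size. They were then -0.53 for the non-contractile tubule wall list, -0.98 for Leydig, -0.55 for Sertoli, -0.41 for macrophage, -0.38 for vascular and -0.31 for endothelial markers.

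Markers of elongating spermatids ran the other way, as Actg2 did, with 18 of 18 positive folds and a median of 0.37. DESeq2 called 0 of them higher, and the median was 0.25 without control replicate 3. Their summed FPKM was 32182 to 34944 in libraries labelled cKO and 22374 to 31112 in those labelled control. Prm1, protamine, which packs sperm DNA, had 8272, 7492 and 7688 FPKM in libraries labelled cKO and 6806, 7327 and 5074 FPKM in libraries labelled control. Striated muscle markers had a median of -0.04 over 10 tested genes (-0.17 without control replicate 3), and Acta1, Actc1, Myh2, Myh4, Tnnt3, Tnni2, Tnnc2, Mb, Mybpc2 and Myl1 were too low to test. Markers of epididymis had a median of 0.29 over 4 tested genes with Lcn5, Lcn8, Lcn9, Lcn10 and Spag11b not listed, and those of mesothelium had a median of 0.0025 over 5 (0.22 without control replicate 3). The part of these cell types in the values of the 10 genes was not tested.

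**Figure D4:**
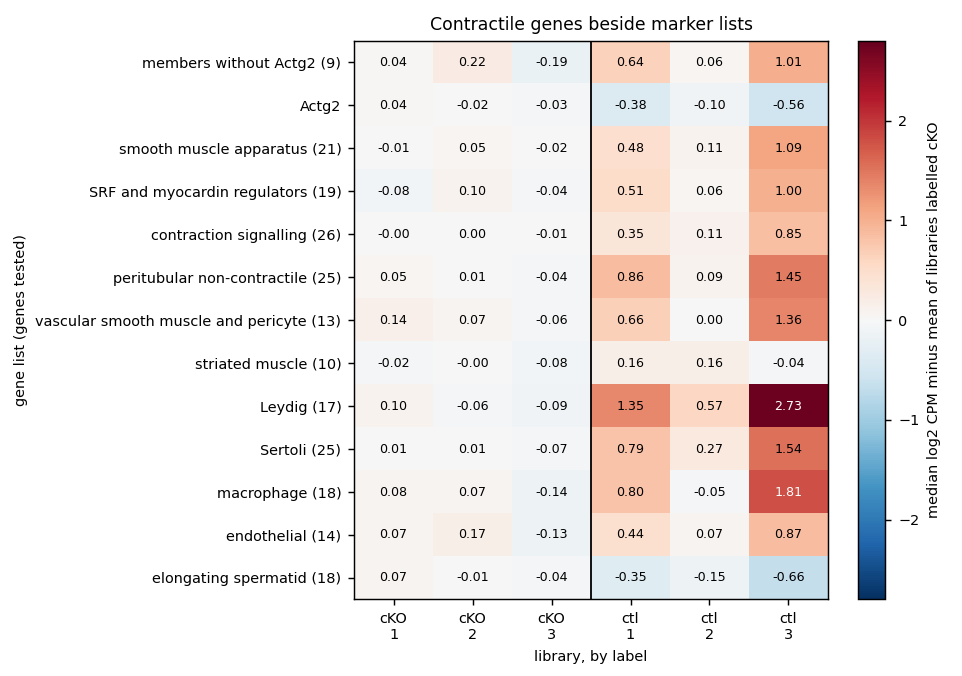
Median log2 CPM of each gene list in each library, relative to the mean of the libraries labelled cKO, as a coloured grid with the libraries labelled cKO on the left and those labelled control on the right. The 9 contractile genes without Actg2 and the Leydig and Sertoli lists are highest in control replicate 3, while Actg2 and the elongating spermatid list are lowest there.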

How the data were processed

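Poly(A) RNA of 6 testis libraries was measured, grouped by the sample labels. Expected counts, unnormalized, were deposited per gene with a length, and the authors scaled FPKM by length and depth, per the file headers. Per the submitters' processing notes, bcl2fastq 2.16, HISAT2 2.0.4, Bowtie2 2.2.5, RSEM, DESeq2 and mm10 were used, with no role or order. Strandedness, not given in the sources used here, leaves overlapping genes uncertain. The lowest FPKM in any table is 0.01, and a missing gene was set to 0.

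Expected counts were rounded to whole numbers. The main test used edgeR 4.0.16 under R 4.3.3 (quasi-likelihood, TMM, filterByExpr with minimum count 10 and minimum total 15, Benjamini-Hochberg at 0.05) over 18269 genes. The common biological coefficient of variation was 22.8%. CPM used a prior count of 2 on the log scale. DESeq2 1.42.0, limma 3.58.1 on log2(FPKM + 1) and log2(FPKM + 0.1), other filters and scalings, a replicate block and each library left out were alternatives. The fit was tested on simulated counts in which all libraries had the same spread. That test does not cover labelled control libraries as unlike each other as these.

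The 10 genes and the lists were chosen with earlier results of these data known. Genes to be named were the 10, L3mbtl2 and the 3 nearest patterns of Acta2, Actg2 and Myh11. From each list, the 2 genes of highest FPKM and the 2 of smallest p were also picked. Not all of the list genes picked in this way are printed. Of those left out, some had positive and others negative folds. Srf, Myocd and the DESeq2 calls Tead1, Rock2, Myh9 and Tpm4 were named after their values were seen.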

Additional observations from a re-analysis of the deposited data

How the results depend on the processing

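Each of the 10 genes kept its sign in every alternative that could be fitted. DESeq2 called 72 genes higher and 1363 lower, among them 2 of the 10 as lower, where edgeR called 0. Limma called 1 gene higher with either pseudocount. Leaving out 1 library in turn gave 0 to 2049 genes higher and 0 to 3851 lower, and 0 to 1 of the 10 higher and 0 to 7 lower. The upper ends are without control replicate 2, the labelled control library most like those labelled cKO. Why that library resembled them was not tested. The median log2 fold change of the 10 was -0.89 without control replicate 2 and -0.35 without control replicate 3. Scaled by library totals it was -0.73, with a median of all genes of -0.10. The stricter filter left 8 of the 10, without Cnn1 and Lmod1. With the replicate block the median was -0.55 and 0 of the 10 were called. Same-numbered libraries had correlations of deviations of 0.043, -0.0067 and -0.039, and other pairings lay between -0.066 and 0.074. These values gave no sign of pairing by number. They cannot exclude it, because the labelled control libraries differ so much that a small shared effect could be hidden. Depth limits Cnn1 and Lmod1 most.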
